A study of Mus musculus with 24 samples.

Results

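The genes described here are 9 components of the Hedgehog pathway: the transcription factors Gli1, Gli2 and Gli3, the receptor Ptch1, the ligand-binding antagonist Hhip, the signal transducer Smo, and the co-receptors Boc, Cdon and Gas1. They were chosen by name as pathway members, and all 9 were among the 15736 genes of the deposited count table. The RNA came from mouse otocyst epithelium, the vesicle that becomes the inner ear. Control embryos (con) were Rosa26rtTA/+, and experimental embryos (R2b) were Rosa26rtTA/+;Tg(tetO-s(dn)Fgfr2b)/+, so every embryo carried 1 copy of the doxycycline-dependent activator rtTA, made from the broadly active Rosa26 locus. The tetO transgene encodes a secreted dominant-negative form of the receptor FGFR2b, which binds FGF ligands away from the cell surface. All pregnant females, and so both genotypes, were injected with doxycycline (1.5 mg/kg) and then fed chow that held 200 mg/kg of it.

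Doxycycline was given from embryonic stage E9.75 for 12 hours (E9.75+12h, the 12-hour exposure), from E9.25 for 24 hours (E9.25+24h, the early exposure) or from E10.25 for 24 hours (E10.25+24h, the late exposure). Tissue of the 12-hour and the early exposure was therefore of stage E10.25, and that of the late exposure of stage E11.25. Each female gave 1 pool of con and 1 pool of R2b otocysts, and such a pool, not an embryo, is the replicate. With 3 litters in the 12-hour exposure and 4 in each of the others, 22 libraries were used, with totals of 18.7 to 28.2 M counts. Levels are given as CPM, the counts divided by the library total in M counts after scaling with TMM factors.

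Hedgehog proteins are secreted signals. In their absence the receptor Ptch1 holds Smo inactive, and Gli3, with part of Gli2, is processed into a repressor. When ligand binds Ptch1 together with a co-receptor (Boc, Cdon or Gas1), Smo moves into the primary cilium and full-length Gli proteins activate transcription. Gli1, Ptch1 and Hhip are themselves transcribed in response, so their RNA is widely used as a readout, while Boc, Cdon and Gas1 are lowered by signalling in several tissues. In the inner ear, Sonic hedgehog from the floor plate and notochord is required for ventral structures, among them the cochlear duct.

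Of the 9 genes, 7 had a RefSeq promoter window on GRCm38.p6, from 250 bases before to 50 after the transcription start. The 250 bases before the start are shown for the target Ptch1 and the co-receptor Gas1, which both rose in the 12-hour exposure. Capitals mark the GC box (GGGCGG or CCGCCC), the short element bound by Sp-family factors. The Ptch1 stretch is chr13:63565736-63565985 and the Gas1 stretch chr13:60177536-60177785, both read 5′ to 3′ on the minus strand.
Ptch1: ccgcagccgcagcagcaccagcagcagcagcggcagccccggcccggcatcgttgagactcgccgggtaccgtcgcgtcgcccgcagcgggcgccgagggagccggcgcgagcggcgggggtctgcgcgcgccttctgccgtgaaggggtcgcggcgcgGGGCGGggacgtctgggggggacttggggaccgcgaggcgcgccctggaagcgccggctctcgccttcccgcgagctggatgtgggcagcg
Gas1: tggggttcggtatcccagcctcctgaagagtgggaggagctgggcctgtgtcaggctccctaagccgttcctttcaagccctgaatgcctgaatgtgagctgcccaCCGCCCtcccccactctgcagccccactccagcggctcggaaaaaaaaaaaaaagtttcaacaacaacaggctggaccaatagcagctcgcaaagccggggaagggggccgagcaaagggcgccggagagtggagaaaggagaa
Each stretch held 1 GC box. On either strand, 5 of the 7 windows held a GC box, against 35.7% of all 32851 RefSeq windows. The GLI motif GACCACCCA (or TGGGTGGTC) was in 0 of the 7 windows, exactly or with up to 1 mismatch, against 0.253% and 6.74% of all windows, so these letters were not in this window, which leaves more distant sequence unread. The RefSeq start lies 7863 bp inside the GENCODE gene for Ptch1 and 30948 bp inside it for Cdon, whose window held no GC box, so other starts of these genes were not searched.

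The libraries were first checked for the transgene, whose reads fall partly in Ighg1, an immunoglobulin constant-region gene. Ighg1 had 1 to 36 counts in the con libraries of the 12-hour exposure and the early exposure and 19414 to 76096 in the R2b libraries. In the late exposure the con-labelled libraries of litters 1 to 4 held 15754, 28, 5106 and 16 Ighg1 counts, and the R2b-labelled ones 1504, 25248, 23658 and 19155. In litter 1 the library labelled con thus held more transgene reads than that labelled R2b, which held some as well. Every direction given for the late exposure is that of the labels. Summed markers of otic epithelium (12 genes) were at 2411 to 7979 CPM in every library. Of 13 hindbrain and floor plate markers, 3 were in the table, and they summed to 0.266 to 6.85 CPM.

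**Figure D1:**
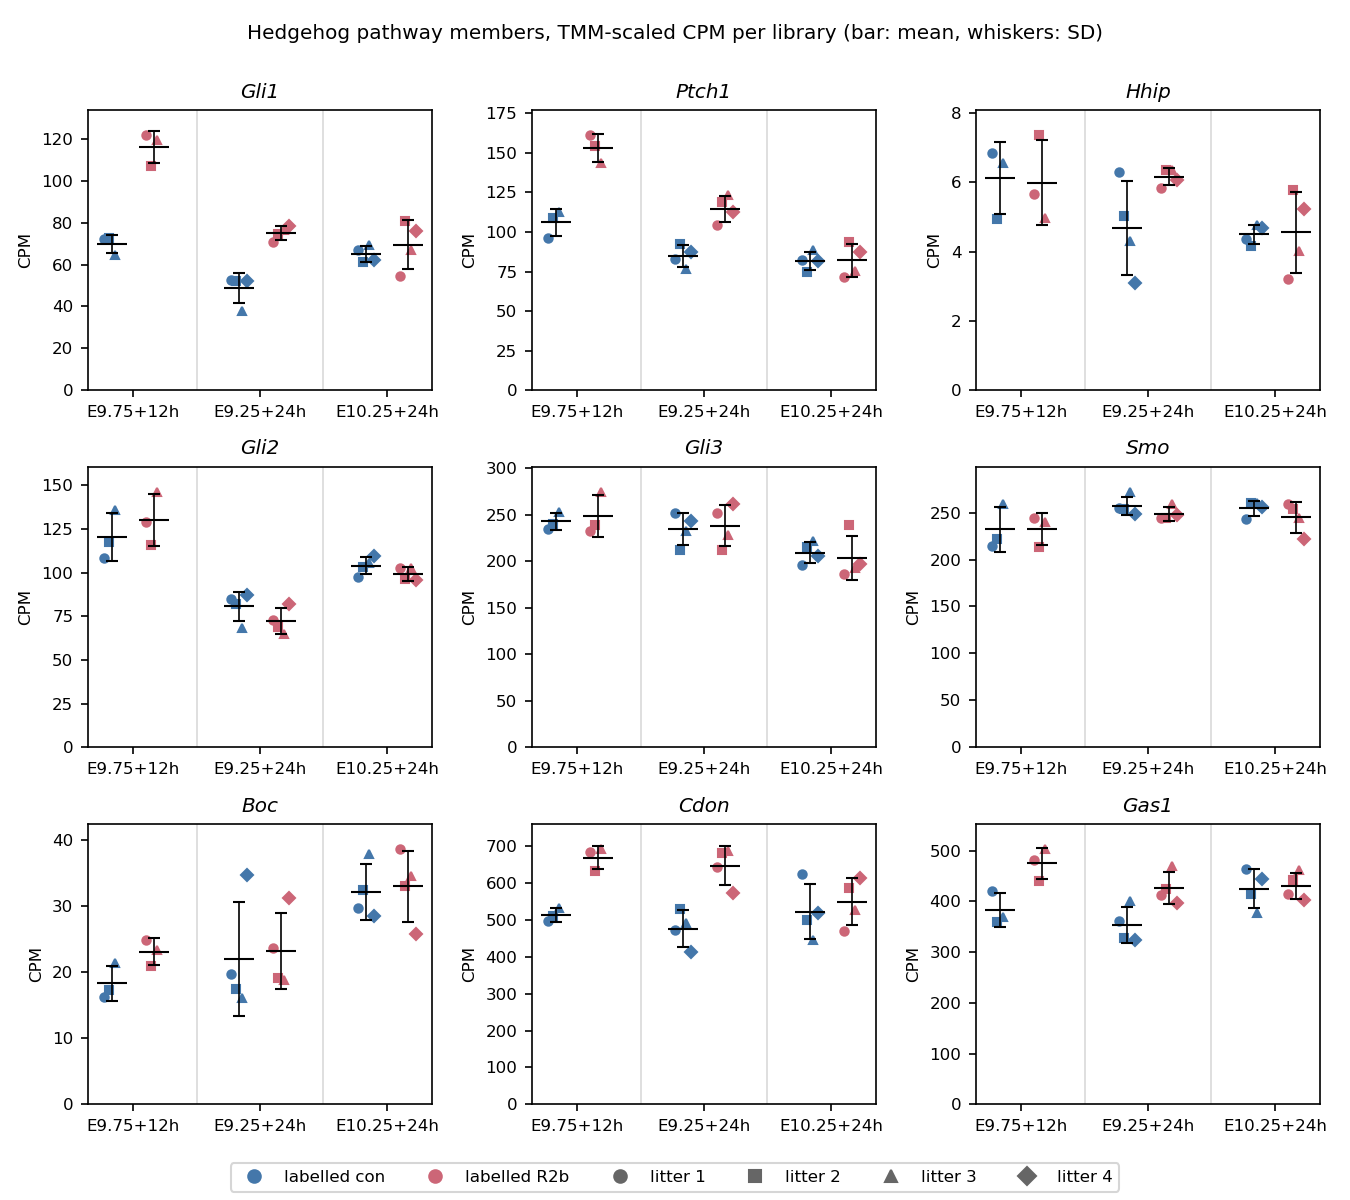
TMM-scaled CPM (y axis, from 0) of the 9 genes in each library, by exposure (x axis) and labelled genotype (colour). Symbols mark litters, bars means and whiskers SD. Gli1 and Ptch1 stood higher in every R2b library than in every con library in the 12-hour exposure and the early exposure, and the labelled groups overlapped in the late exposure.

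In the libraries labelled con the co-receptors Gas1 and Cdon were the most abundant of the 9 per length of transcript. As CPM per kilobase of exon, Gas1 was at 129 ± 11.1 in the 12-hour exposure (SD, n = 3), 120 ± 12.0 in the early exposure and 144 ± 12.8 in the late exposure (SD, n = 4 each). Cdon followed at 66.5 ± 2.37, 61.7 ± 6.40 and 67.6 ± 9.71 in the same order, and Smo at 41.3 ± 4.23, 45.8 ± 1.73 and 45.3 ± 1.39. Below these stood Gli3, Gli2, Gli1, Ptch1 and Boc, and Hhip was lowest, at 0.495 to 0.675 on average. The order was the same in the 12-hour exposure and the early exposure, and in the late exposure Boc stood above Ptch1. Neighbours in the order overlapped between libraries only in the early exposure, for Gli2 with Gli1 and for Ptch1 with Boc.

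**Figure D2:**
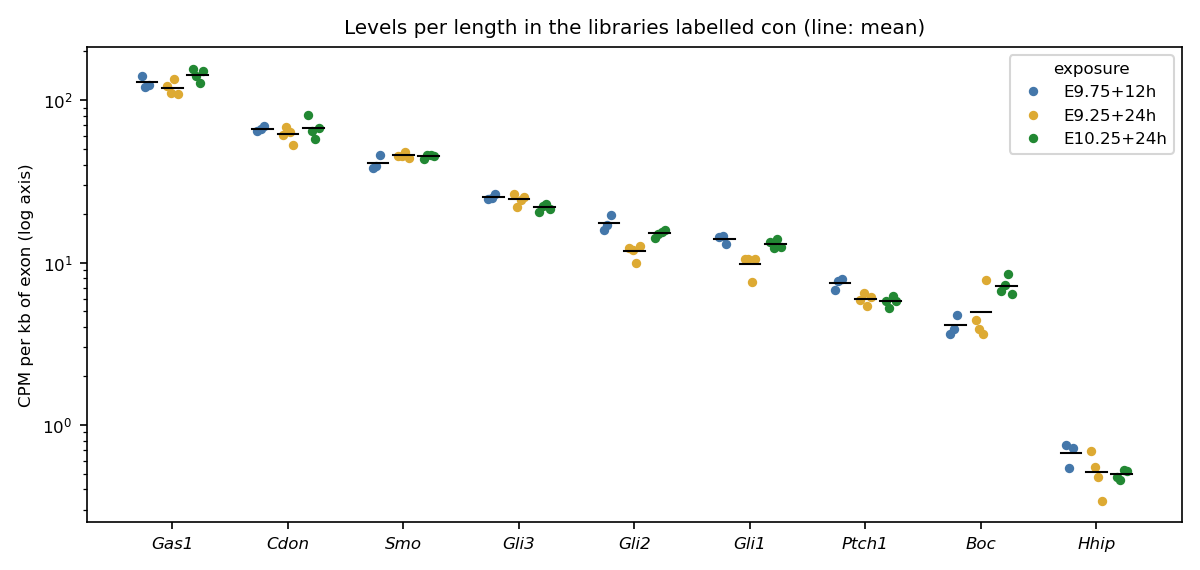
CPM per kb of exon (y axis, log scale) of the 9 genes (x axis) in each library labelled con, coloured by exposure, with the mean as a line. Gas1 averaged 120 to 144 and Hhip 0.495 to 0.675.

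In the 12-hour exposure the targets Gli1 and Ptch1 and the co-receptors Cdon and Gas1 rose in R2b otocysts, while Smo, Gli2, Gli3, Hhip and Boc were not called. In all, 4 of the 9 genes were called at an edgeR FDR under 0.05, each higher, against 20.0% of all 14882 genes tested. The median log2 fold change of the 9 was 0.33, against 0.01 for all genes tested, and the median absolute change was 0.33 against 0.26. For the 12 otic epithelium markers the median log2 fold change was 0.31, so a shift of this size was not particular to the 9. The R2b and con libraries did not overlap for those 4 genes, which held for 39.1% of all genes.

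Gli1 (ENSMUSG00000025407, chr10:127329882-127341974, minus strand, GRCm38) encodes the activator that is itself a target, and it shares exon sequence with the antisense gene Arhgap9. It was at 72.2, 72.6 and 64.7 CPM in the con libraries and at 121, 107 and 119 CPM in the R2b libraries of litters 1 to 3. The lowest R2b library lay well above the highest con library. The fitted log2 change was 0.76 (SE 0.10, edgeR FDR 9.31e-04), with 3 of 3 litters higher. Ptch1 (ENSMUSG00000021466, chr13:63508328-63573598, minus strand) was at 96.5, 109 and 113 CPM in con and at 161, 154 and 144 CPM in R2b. Again every R2b library exceeded every con library, and the fitted log2 change was 0.55 (SE 0.10, edgeR FDR 0.00342). Hhip (ENSMUSG00000064325, chr8:79965851-80058006, minus strand), the third target, binds ligand and limits its spread. It was low, at 6.85, 4.95 and 6.57 CPM in con and 5.66, 7.35 and 4.96 CPM in R2b, on 87 to 183 reads a library. The groups overlapped, and the log2 fold change of -0.01 had a 95% interval of -0.49 to 0.48, wide enough to hold a change as large as that of Cdon.

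Cdon (ENSMUSG00000038119, chr9:35421128-35507652, plus strand), an immunoglobulin-domain co-receptor, was at 495, 511 and 532 CPM in con and at 683, 631 and 690 CPM in R2b. The groups stood apart, at a fitted log2 change of 0.41 (SE 0.09, edgeR FDR 0.0104). Gas1 (ENSMUSG00000052957, chr13:60174405-60177365, minus strand), a membrane-anchored co-receptor unrelated in sequence to Cdon, was at 420, 359 and 369 CPM in con and at 482, 441 and 502 CPM in R2b. The change was smaller, 0.33 (SE 0.10, edgeR FDR 0.0375), and was lost with the litter as a block. Boc (ENSMUSG00000022687, chr16:44485049-44558897, minus strand), the relative of Cdon, was at 16.2, 17.4 and 21.3 CPM in con and at 24.9, 20.9 and 23.4 CPM in R2b. It was higher in R2b in each litter, but the groups overlapped and the value of 0.36 was not called (edgeR FDR 0.102).

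The transducer Smo (ENSMUSG00000001761, chr6:29735503-29761365, plus strand) was at 215 to 259 CPM in con and 213 to 244 CPM in R2b, a log2 fold change of 0.03 (95% interval -0.20 to 0.25). Gli2 (ENSMUSG00000048402, chr1:118834132-119053619, minus strand), the main activator of the first response, was at 109 to 136 and 116 to 146 CPM, a value of 0.13 (-0.12 to 0.39). Gli3 (ENSMUSG00000021318, chr13:15463235-15730026, plus strand), the main repressor, was at 235 to 253 and 232 to 274 CPM, a value of 0.06 (-0.15 to 0.26). The intervals of Smo, Gli2 and Gli3 lay below the point value of Ptch1, although the differences between genes were not tested. These RNA levels say nothing of the processing of the Gli proteins.

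**Figure D3:**
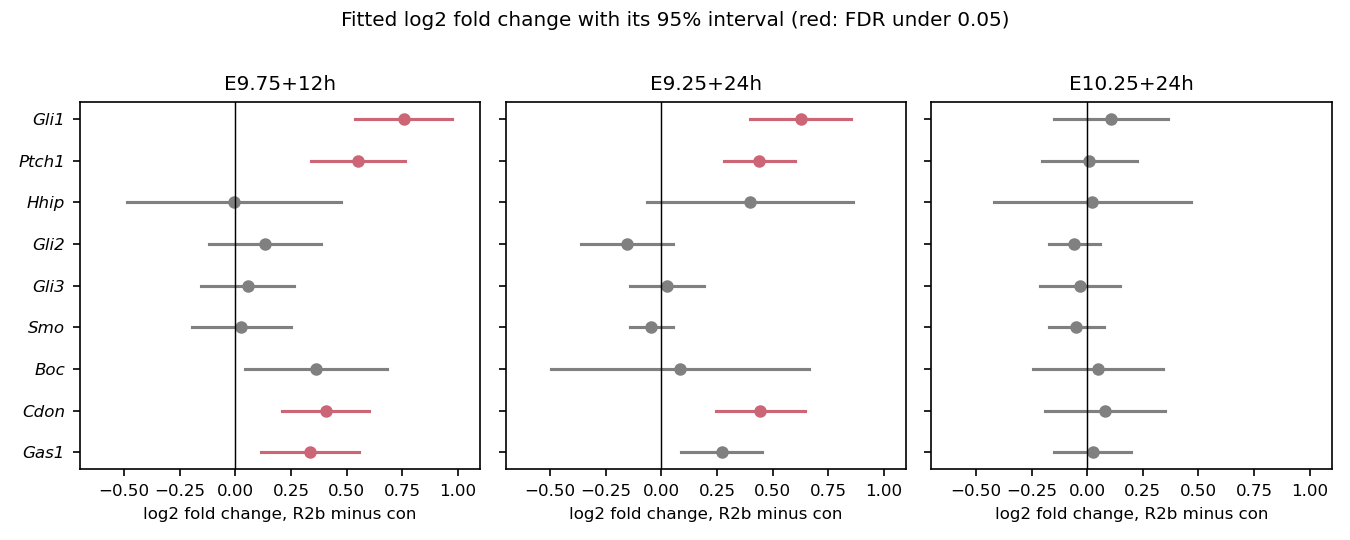
Fitted log2 fold change of R2b against con (x axis) of the 9 genes (y axis) at each exposure, with its 95% interval, red where the edgeR FDR was under 0.05. Gli1, Ptch1 and Cdon are red in the 12-hour exposure and the early exposure, Gas1 in the 12-hour exposure, and none in the late exposure.

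Calls in the 12-hour exposure changed when a litter was left out, with 2 libraries a group then remaining, while the fitted changes stayed close. Without litter 1, Gli1 alone was called, against 2.92% of all genes, and with the litter also as a block none of the 9 was, against 1.79%. Without litter 3, Gli1 and Ptch1 were called, against 11.8%. Over all alternatives the log2 fold change was 0.67 to 0.83 for Gli1, 0.45 to 0.63 for Ptch1, 0.36 to 0.44 for Cdon and 0.26 to 0.41 for Gas1. With all litters and the block, 3 genes were called (Gli1, Ptch1 and Cdon), against 11.9% of all genes. Otocysts can carry attached mesenchyme, which also responds to Hedgehog. The 16 mesenchyme markers summed to 142 to 436 CPM in con and 277 to 474 CPM in R2b. With 20.0% of all genes called, 2 of the 15 tested were called, both higher, the matrix proteoglycans Dcn (log2 fold change 1.03) and Lum (1.15). Of the 15, 13 had values above 0 and 2 below, with a median log2 fold change of 0.37. Summed markers of otic neuroblasts (284 to 317 CPM in con, 407 to 468 in R2b), of otic epithelium (4208 to 4406 and 4623 to 5493) and of hindbrain (0.967 to 1.55 and 1.85 to 2.41) were higher in every R2b library than in every con library. Blood markers went the other way, with all 8 tested at values below 0 (median log2 fold change -1.63), 0 called in edgeR and 4 at an unadjusted p under 0.05. Their sums overlapped, at 22.4 to 815 CPM in con and 94.9 to 122 CPM in R2b. Of 9 endothelial genes tested, 7 had values below 0 and 1, the receptor Tek, was called (-1.41), and the sums were 18.7 to 64.2 and 21.8 to 44.2 CPM. The part of these in the changes of Gli1, Ptch1, Cdon and Gas1 was not tested. In bulk RNA, more cells of a type and more RNA per cell cannot be told apart.

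In the early exposure, 24 hours of induction ending at the same stage, Gli1, Ptch1 and Cdon again rose in R2b, and Gas1 was higher in each litter without passing the threshold. In all, 3 of the 9 were called, each higher, against 15.6% of 14979 genes. The same 3 genes had groups that did not overlap, against 22.4% of all genes. The median log2 fold change of the 9 was 0.27 against -0.01 for all genes, and the median absolute change 0.27 against 0.16. For the 12 otic epithelium markers the median log2 fold change was 0.24.

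Gli1 was at 52.9, 52.3, 37.9 and 52.2 CPM in the con libraries of litters 1 to 4 and at 70.8, 74.8, 76.4 and 78.5 CPM in the R2b libraries. Litter 3 held the lowest con value, and the R2b values lay close together. The log2 fold change was 0.63 (SE 0.10, edgeR FDR 0.00653). Ptch1 was at 83.0, 92.5, 76.5 and 87.5 CPM in con and at 104, 119, 123 and 113 CPM in R2b. Its lowest con and highest R2b library were also those of litter 3, and the log2 fold change was 0.44 (SE 0.07, edgeR FDR 0.00655). Hhip was at 6.31, 5.02, 4.31 and 3.09 CPM in con and at 5.85, 6.36, 6.35 and 6.06 CPM in R2b. It was higher in 3 of 4 litters with overlapping groups, and the value of 0.40 (SE 0.20) was not called (edgeR FDR 0.213).

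Cdon was at 472, 530, 491 and 411 CPM in con and at 643, 681, 687 and 573 CPM in R2b. Both pools of litter 4 were the lowest of their group, and the gap within a litter was even, at log2 differences of 0.36 to 0.49. The fitted change was 0.45 (SE 0.09, edgeR FDR 0.0143). Gas1 was at 362, 328, 401 and 325 CPM in con and at 413, 424, 470 and 396 CPM in R2b. It was higher in 4 of 4 litters, yet the highest con pool exceeded the lowest R2b pool, and the value of 0.27 (SE 0.08) had an edgeR FDR of 0.0511. Boc was at 19.7, 17.4, 16.1 and 34.7 CPM in con and at 23.6, 19.1, 18.8 and 31.2 CPM in R2b. The high values were both from litter 4, and the change of 0.08 had a 95% interval of -0.50 to 0.66.

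Gli2 was at 84.7, 82.2, 68.6 and 87.4 CPM in con and at 73.0, 69.0, 64.8 and 82.2 CPM in R2b. It was thus lower in R2b in all 4 litters, against the direction of Gli1, with overlapping groups and a value of -0.15 (SE 0.09, edgeR FDR 0.277). Gli3 and Smo had values of 0.03 (95% interval -0.14 to 0.19) and -0.04 (-0.14 to 0.05). With the litter as a block, 5 of the 9 were called, Gli1, Ptch1, Cdon and Gas1 higher and Gli2 lower, against 40.6% of all genes. DESeq2 called 4, with Gas1 added to Gli1, Ptch1 and Cdon, against 21.8% of all genes.

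Without litter 1, 2, 3 or 4 the share of all genes called was 2.15%, 3.06%, 7.42% and 14.2%. Ptch1 was called each time, Gli1 was lost without litter 2 (0.68, edgeR FDR 0.0514), and Cdon was lost without litter 1 (0.44, FDR 0.103) and litter 3 (0.43, FDR 0.0602). Over all alternatives the log2 fold change stayed at 0.52 to 0.70 for Gli1, 0.36 to 0.50 for Ptch1 and 0.38 to 0.51 for Cdon.

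Mesenchyme markers in the early exposure varied more between litters than between genotypes, summing to 390, 225, 96.7 and 1400 CPM in con and 490, 263, 109 and 1295 CPM in R2b of litters 1 to 4. None of the 15 tested was called in edgeR (0 at an unadjusted p under 0.05), against 15.6% of all genes called. The largest difference in Gli1, a log2 value of 1.01, was in litter 3, whose pools had the lowest mesenchyme sums of their groups and whose hindbrain markers summed to 0.266 CPM in con and 4.03 CPM in R2b, the widest such gap. Hindbrain sums were higher in R2b in the other litters too, at 1.83 and 2.88, 0.447 and 0.582, and 2.48 and 2.62 CPM in con and R2b of litters 1, 2 and 4. These sums rest on only 3 genes at very low levels. Nkx6-1, 1 of them, is also on the list of other Hedgehog targets below. Summed otic epithelium markers were also higher in R2b in each of the 4 litters, at 3684, 3754, 2860 and 2411 CPM in con and 4506, 5213, 3635 and 3370 CPM in R2b. Blood markers summed to 9.84 to 1655 CPM in con and 12.8 to 639 CPM in R2b, and endothelial markers to 16.1 to 300.5 and 15.7 to 136 CPM. All 8 blood and all 10 endothelial genes tested had values below 0, with 0 called in edgeR (0 at an unadjusted p under 0.05). The part of these in the changes of the 9 genes was not tested. Litter 4, with the highest mesenchyme sums, gave 0.59 for Gli1 and held the highest Boc and Gli2 levels of each genotype.

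**Figure D4:**
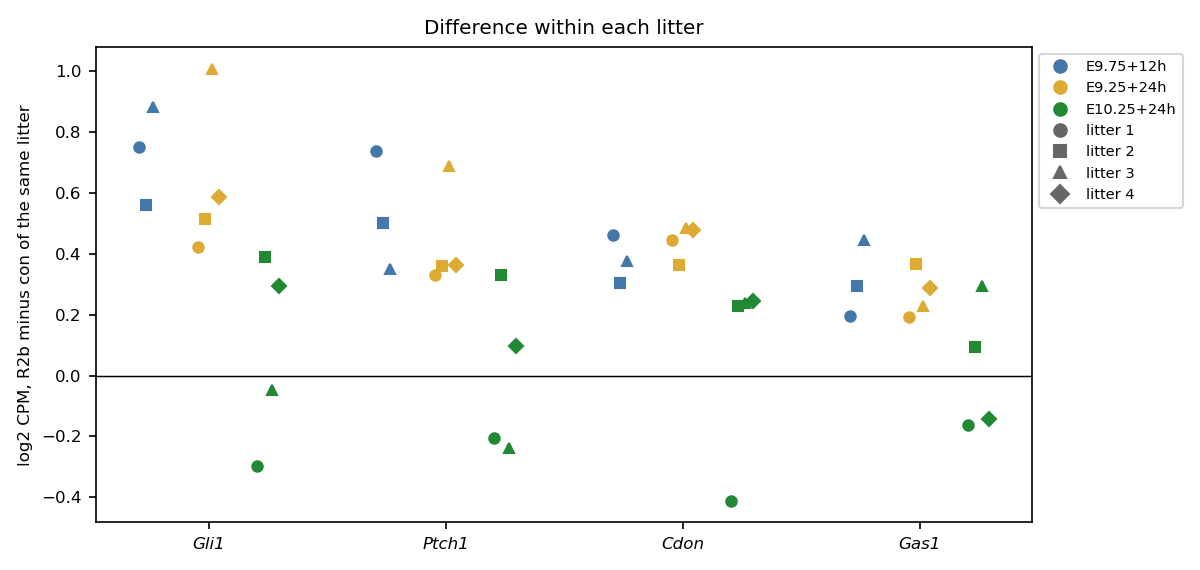
Log2 CPM of R2b minus con of the same litter (y axis) for Gli1, Ptch1, Cdon and Gas1 (x axis), coloured by exposure, with a symbol per litter. All 7 litters of the 12-hour exposure and the early exposure are above 0 for each gene, and litter 1 of the late exposure is below 0 for each.

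In the late exposure none of the 9 genes was called between the labelled groups by edgeR, by DESeq2 or at an unadjusted p under 0.05, and 0% of 15203 genes were called. Groups did not overlap for 0 of the 9 and for 1.0% of all genes. Blood markers summed to 4961 CPM in the R2b-labelled library of litter 3 and to 165 to 703 CPM in the other late libraries. Neuroblast markers summed to 510 CPM in the R2b-labelled library of litter 4 and to 179 to 249 CPM in the others. The part of these in the late comparison was not tested. Gli1 was at 66.9, 61.4, 69.3 and 62.0 CPM in the con-labelled libraries of litters 1 to 4, with 54.5, 80.5, 67.0 and 76.2 CPM in the R2b-labelled ones. It was higher in the library labelled R2b in litters 2 and 4 and lower in litters 1 and 3, the litters whose library labelled con held a large number of Ighg1 reads. Ptch1 had the same division, at 82.3, 74.8, 88.8 and 81.9 CPM under the con label and 71.4, 93.9, 75.3 and 87.5 CPM under the R2b label. Within litter 1 the library labelled con held 15754 Ighg1 counts and that labelled R2b 1504. The library labelled con was the higher for Gli1, Ptch1, Hhip, Gli3, Cdon and Gas1, and that labelled R2b for Gli2, Smo and Boc.

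For Cdon the levels were 625, 499, 446 and 517 CPM under the con label and 470, 585, 527 and 612 CPM under the R2b label, higher in the latter in 3 of 4 litters. Without litter 1 and with the litter as a block, its log2 fold change was 0.26 with an edgeR FDR of 0.0404 (4.04% of all genes called), against 0.08 with all litters. Over all alternatives its FDR ranged from 0.0404 to 1. The other 8 genes had values of -0.06 to 0.11. Without litters 1 and 3 Gli1 stood at 0.37 and Ptch1 at 0.23, neither called.

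The effect itself was then compared between exposures in 1 fit of all 22 libraries. Between the early exposure and the 12-hour exposure none of the 9 was called (edgeR, 0 of 9 at an unadjusted p under 0.05, 0% of 15688 genes called), and the difference for Gli1 was -0.11 (SE 0.16) and for Ptch1 -0.09 (SE 0.13). Between the late exposure and the early exposure none was called either (0% of all genes). An unadjusted p under 0.05 was reached by 4 of 9 in edgeR. The share of all genes at that p was not counted, so this count has no background to be read against. The difference was -0.52 (SE 0.15, edgeR FDR 0.269) for Gli1, -0.43 (SE 0.12, edgeR FDR 0.248) for Ptch1, -0.37 for Cdon and -0.25 for Gas1. Without litter 2 of the late exposure the difference for Ptch1 passed the threshold (-0.55, edgeR FDR 0.0485, 0.440% of all genes called, over all alternatives 0.0485 to 1). That setting kept litters 1 and 3, in which the libraries labelled con held transgene reads. Without litters 1 and 3 of the late exposure, whose libraries labelled con held transgene reads, the difference was smaller for Gli1 (-0.28), Ptch1 (-0.22) and Cdon (-0.20) and was -0.29 for Gas1, none called. DESeq2 called none of the 9 in either comparison.

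Levels in the libraries labelled con were also compared between stages. From the early exposure (collected at E10.25) to the late exposure (collected at E11.25), 4 of the 9 genes (Gli1, Gli2, Boc and Gas1) were called, all higher at the later stage. With 38.1% of 15688 genes called in either direction, this share was near that of all genes. Gli1 averaged 48.8 ± 7.27 CPM before and 64.9 ± 3.81 CPM after (SD, n = 4 each), with a log2 difference of 0.41 (edgeR FDR 0.00508). Gli2 rose by 0.37 (FDR 0.00296), Boc by 0.54 (FDR 0.0414) and Gas1 by 0.26 (FDR 0.0138). Ptch1 was not called, at 84.9 ± 6.81 and 81.9 ± 5.72 CPM and a log2 difference of -0.05 (SE 0.09).

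The 2 con groups collected at the same stage also differed. Against the 12-hour exposure, con libraries of the early exposure were lower for Gli1 (by a log2 value of -0.51, edgeR FDR 0.00140), Gli2 (-0.58, FDR 6.81e-05) and Ptch1 (-0.32, FDR 0.00916), 3 of 9 against 36.0% of all genes. The differences for Gli1 and Gli2 at 1 stage were thus no smaller in size than those between stages, and both comparisons share the con libraries of the early exposure. From the early to the late exposure the stage changed together with the number that heads the library titles, and between the 12-hour and the early exposure the length of exposure did, so neither can be told apart from it. The mitochondrial share of counts, 4.00% to 6.69% in the 12-hour exposure, was 1.53% to 1.70% in the early and 1.88% to 2.85% in the late exposure. Otic epithelium markers of the con-labelled libraries summed to 4208 to 4406, 2411 to 3754 and 5118 to 7979 CPM, in the same order. The part of these sums in the con levels was not tested. The change in Boc between stages was called in 6 of 14 alternatives (edgeR FDR 0.00101 to 0.213), and without the early con library of litter 4 its value was 0.86. Gas1 lost its call without the late con library of litter 1. Without the libraries labelled con of litters 1 and 3, which held transgene reads, Gli2 and Gas1 remained called and Gli1 and Boc did not (18.2% of all genes called).

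Over the 22 libraries, with each exposure centred on its own mean, log2 CPM of Gli1 was most like that of Slc36a2 (r = 0.951), Matn1 (0.947), Adamts15 (0.935), Cpxm1 (0.933) and Abat (0.928), among 12806 genes. Slc36a2 is an amino acid transporter, Matn1 a cartilage matrix protein and Abat a GABA-degrading enzyme. Ptch1 was most like Tpcn1 (0.936), Chst2 (0.923), Gli1 (0.923), Arhgef28 (0.922) and Cpxm1 (0.912), so Cpxm1 was on both lists. The points share the genotype difference: centred on each group instead, Gli1 with Ptch1 had an r of 0.672. Cdon had an r of 0.773 with Gli1 and 0.785 with Ptch1, falling to 0.241 and 0.342 when centred on groups. These correlations are descriptions across libraries that share litters.

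Other genes of the pathway were tested in the same way (values are log2 fold changes of R2b against con). Of a list of 20, 18 were in the table, and 16 were tested at each of the E10.25-stage exposures. Shh and Ihh had no row in the count table and so could not be tested. In the 12-hour exposure, 1 rose, Scube1, a secreted protein of the family that helps release Hedgehog ligand (0.44, edgeR FDR 0.0193), and 1 fell, Gpc3, a glypican that binds ligand and limits signalling (-0.43, FDR 0.00805). In the early exposure 0 of 16 and in the late exposure 0 of 18 were called in edgeR (2 and 0 at an unadjusted p under 0.05). The share of all genes called was 20.0% in the 12-hour, 15.6% in the early and 0% in the late exposure. The intracellular inhibitor Sufu had values of 0.13 in the 12-hour and -0.01 in the early exposure and the ciliary kinesin Kif7 0.15 and -0.08, none called. The list's median was -0.06 in the 12-hour and -0.05 in the early exposure, against 0.01 and -0.01 for all genes. The ligand Dhh averaged 0.303 to 0.560 CPM in the 6 groups.

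Of 14 genes for primary cilium transport and structure, which Smo and the Gli proteins depend on, 1 rose in the 12-hour exposure, the intraflagellar transport gene Ift122 (0.40, edgeR FDR 0.0256), and 0 were called at the other exposures (3 and 0 at an unadjusted p under 0.05). Among all genes, 20.0% were called in the 12-hour, 15.6% in the early and 0% in the late exposure. The list's median was 0.05 in the 12-hour exposure and -0.01 in the early exposure, near the medians of all genes.

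A list of 14 other genes reported as Hedgehog targets in various tissues was mixed in direction. Of the 10 in the table, 1 rose and 4 fell in the 12-hour exposure, and 2 rose and 4 fell in the early exposure. Among all genes, 20.0% and 15.6% were called at these exposures. The cell cycle regulator Mycn fell by 1.20 on the log2 scale in the 12-hour exposure (edgeR FDR 6.71e-04), and its value in the early exposure was -0.95. Prdm1, a transcriptional repressor, had values of -1.31 and -1.54, and the cyclin gene Ccnd1 was at -0.54 in the early exposure (edgeR FDR 0.00119). The zinc finger gene Sall1 rose, by 0.65 in the 12-hour exposure. The list's median was -0.03 and -0.08. Foxf1, a mesenchymal target named after its values were seen, rose in the early exposure from 0.866 to 2.35 CPM (1.44, edgeR FDR 0.0222) on 8 to 77 reads a library.

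Genes of ventral and dorsal otic identity were mixed in direction. Their counts stand against 20.0% of all genes called in the 12-hour exposure, 15.6% in the early and 0% in the late exposure. Of 13 ventral genes, 4 rose and 2 fell in the 12-hour exposure. The neurogenic factor Neurog1 rose by 0.78, and Pax2, needed for the cochlear duct and often placed downstream of Hedgehog, by 0.78. The LIM homeobox gene Lmx1a, posterior-lateral rather than strictly ventral, rose by 0.53. The homeobox genes Otx1 and Otx2 had lower means in R2b, at 68.4 against 124 CPM and 18.0 against 35.9 CPM. In the early exposure, 2 rose and 4 fell. Pax2 rose by 0.64, while the ventrolateral homeobox gene Otx1 fell by 1.50. Otx2 averaged 27.9 CPM in con and 5.99 CPM in R2b. The ventral list's median was 0.20 and 0.06 at these exposures. Of 9 dorsal genes, 6 rose and 0 fell in the 12-hour exposure, among them the BMP-binding Bmper (1.14), Msx2 (0.83) and Wnt2b (0.80). In the early exposure, 3 rose and 2 fell, with Bmper at 1.83, Msx2 at 0.77 and the homeobox gene Hmx2 at -1.05. The dorsal list's median was 0.50 and 0.42. In the late exposure 0 of 13 and 0 of 9 were called in edgeR, with 1 and 0 at an unadjusted p under 0.05.

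**Figure D5:**
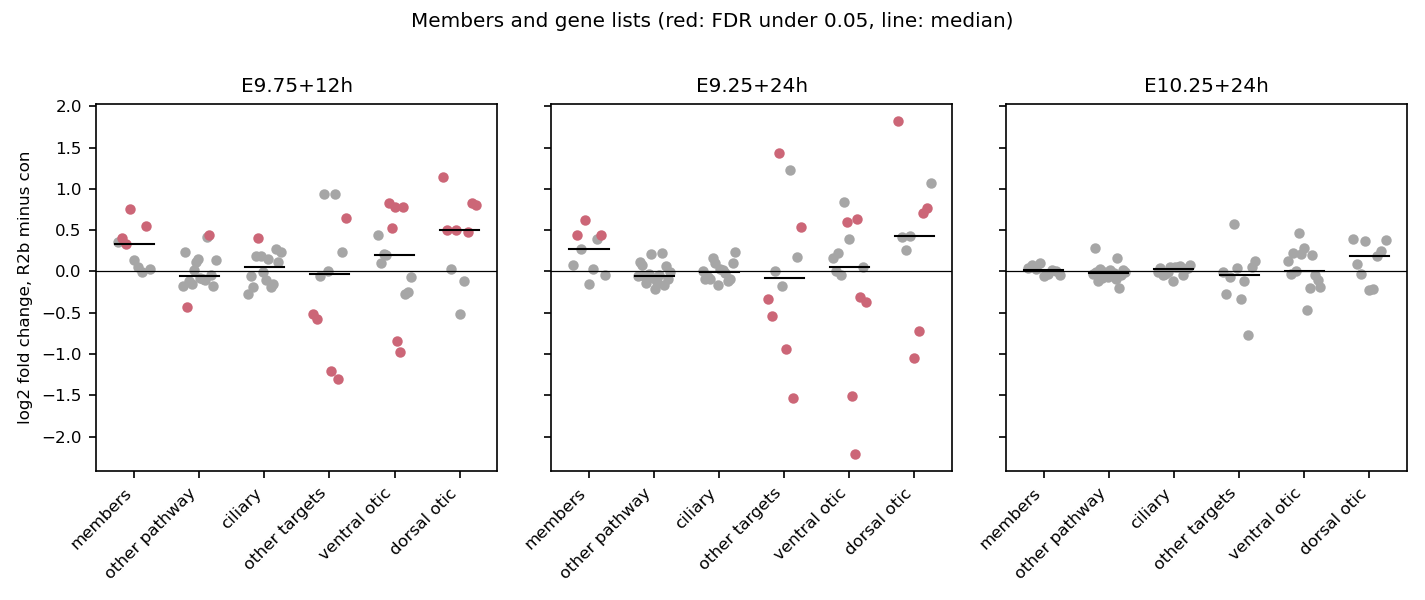
Log2 fold change of R2b against con (y axis) for the 9 members and 5 gene lists (x axis) at each exposure, a point per gene tested, red where the edgeR FDR was under 0.05, with the median as a line. The members' median was 0.33 in the 12-hour exposure and 0.27 in the early exposure, and the dorsal list's 0.50 and 0.42.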

How the data were processed

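Stranded poly(A) RNA libraries of pooled otocyst epithelia were used. The authors deposited raw counts of reads per gene, and the lowest gene total in the columns used was 100. Novoalign 2.08.03 and mm10 are named per the submitters' processing notes, and the counting tool and its strand setting are not given in the sources used here, so reads of Gli1 and of the overlapping antisense gene Arhgap9, and of Gli3 and Gm6556, may not be told apart. Of 24 samples 22 had a column, and 2 columns matched no sample and were not used. Of 8 libraries planned for the 12-hour exposure, 6 were thus tested. Symbols and positions are from GENCODE M21 on GRCm38 (15522 genes matched, 214 did not).

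Each exposure was tested alone in edgeR 4.0.16 (R 4.3.3) by its quasi-likelihood test (filterByExpr, then TMM, estimateDisp, glmQLFit, glmQLFTest) and Benjamini-Hochberg adjustment over all genes tested (FDR, threshold 0.05). Differences of effects and con levels were contrasts of 6 group means. Standard errors came from the F statistic. CPM was scaled over all 22 libraries. Correlations used log2 CPM (prior count 2) and genes with a mean of at least 1. Litters were read from the shared number in the titles, and each female gave both pools. Deviations of same-litter pools from group means correlated at -0.25 to -0.11 across genes in the 12-hour exposure, 0.42 to 0.77 in the early one and -0.11 to 0.39 in the late one. No pair of libraries agreed within counting noise (chi-square per degree of freedom of at least 5.58). Reads carry no molecular identifiers.

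Alternatives covered DESeq2 1.42.0, size factors by median of ratios, a CPM mean of 1 or more, genes unfiltered, the litter as a block, 1 fit of all libraries, an FDR of 0.1, and each library or litter left out. Leaving out litters 1 and 3 of the late exposure was chosen after seeing the data. All 9 members are named. From the other lists, at most 3 called genes per list and exposure are named, smallest FDR first, with Shh, Ihh, Dhh, Sufu and Kif7 in any case. Foxf1 and the mean CPM of Otx1 and Otx2 were added after their values were seen. Values of some listed genes are not reported here. The members and lists were chosen with earlier results of these data known. The script was tested on simulated data.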

Additional observations from a re-analysis of the deposited data

Results flagged for a closer look

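Gli1 in the con library of litter 3 in the early exposure was at 37.9 CPM, far from the other 3 con libraries of that exposure, which were at 52.2 to 52.9 CPM. The gap was 0.959 of the group's range. It was the only such value among 36 combinations of a gene and a group of 4 libraries, and chance flags about 1 in 20 groups. The library also had the lowest sums of mesenchyme markers (96.7 CPM) and blood markers (9.84 CPM) among the con libraries of that exposure. Its part in the level of Gli1 was not tested.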

How the results depend on the processing

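In the 12-hour exposure 4 of the 9 genes were called and in the early exposure 3, all higher in R2b. With the litter as a block these became 3 and 5, the litters pairing the pools by their titles, and the block changed no other count of called members. Leaving out libraries or litters, with or without the block, gave 0 to 4 called members in the 12-hour exposure (1.79% to 30.5% of all genes called), 2 to 6 in the early (2.15% to 41.2%) and 0 to 1 in the late exposure (0% to 4.04%). It gave 0 to 1 for the difference of effects between the late and the early exposure (0% to 0.440%) and 2 to 4 for the con level between them (18.2% to 39.2%), which was 2 without the con-labelled libraries of litters 1 and 3 and also without that of litter 1 alone. Gli1 was called in 17 of 18 alternatives of the 12-hour and 21 of 22 of the early exposure, Ptch1 in 16 and 22, Cdon in 13 and 20, and Gas1 in 8 and 11, none with a turned direction. The cause of the lost calls was not tested, although settings with fewer libraries have less data.

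Directions turned only among values that were not called. With a mean CPM of at least 1, Hhip was at 0.0019 in the 12-hour exposure, and with the block at -0.0085 in the late one. Without litters 1 and 3 of the late exposure Gli3 was at 0.074, Boc at -0.030 and Gas1 at -0.003798, and the difference of effects from the early exposure was 0.033 for Gli3. For Smo that difference was 0.016 with median-of-ratios size factors, 0.015 with the CPM minimum and 0.016 in DESeq2. Without the con-labelled libraries of litters 1 and 3 its con level difference was 0.0022.

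Libraries or litters left out in turn gave these ranges. In the 12-hour exposure they were -0.028 to 0.10 for Gli3, -0.32 to 0.16 for Hhip and -0.065 to 0.098 for Smo. In the early exposure they were -0.019 to 0.074 for Gli3 and -0.091 to 0.38 for Boc. In the late exposure they were -0.012 to 0.23 for Gli1, -0.12 to 0.020 for Gli3, -0.11 to 0.087 for Ptch1, -0.17 to 0.16 for Hhip, -0.064 to 0.15 for Boc and -0.065 to 0.10 for Gas1. The difference of effects between the late and the early exposure ranged from -0.057 to 0.039 for Smo and -0.17 to 0.030 for Boc. The con level difference between them ranged from -0.21 to 0.12 for Hhip and from -0.031 to 0.023 for Smo, and that between the early and the 12-hour exposure from -0.042 to 0.39 for Boc.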
